A study of Mus musculus with 30 samples.

Results

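The comparison set 2 mouse acute myeloid leukemia lines side by side, both carrying the fusion MLL/AF9 and named MLL/AF9 #1 and MLL/AF9 #2 by the labels (line 1 and line 2 here). The members were the 3 samples titled with each name, 6 of the 30 samples of the series. The rest of the series holds CALM/AF10 leukemia cells and normal granulocyte-monocyte progenitors treated with RG3039, an inhibitor of the decapping scavenger enzyme Dcps, and 2 CALM/AF10 lines. The labels name no treatment for the 4 lines, and the comparison asks how the profiles of 2 lines with the same fusion differ. Both MLL/AF9 lines are given as AML, strain C57BL/6 and hematopoietic cells, and their labels differ only in the line number. No age, time or agent is given for them, nor how the fusion was introduced, whether a line is 1 clone, or whether its 3 samples came from separate cultures or animals. The p-values therefore measure only the spread between these samples, which may be technical.

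MLL/AF9 joins the start of Kmt2a (MLL), a histone methyltransferase that keeps developmental genes active, to the end of Mllt3 (AF9), which recruits transcription elongation factors. In mouse models the fusion keeps the HOXA genes and Meis1 switched on in myeloid progenitors and blocks their maturation, giving cells that resemble granulocyte-monocyte progenitors or monoblasts. Leukemia cells grow in marrow and spleen among macrophages, stromal cells and vessels.

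Levels are given as TPM (each transcript's share of all transcripts of the library), a scale that corrects for transcript length, summed over the transcripts of a gene. Differences are fitted log2 differences in read counts, line 2 minus line 1, with their standard error (SE), and a gene is called higher or lower when edgeR's quasi-likelihood test gave an adjusted p under 0.05. The libraries of line 1 held 20204268 to 24984538 estimated reads and those of line 2 held 9530627 to 12102298, so levels in line 2 rest on fewer reads. The libraries also differed in kind. Transcripts annotated as retaining an intron took 6.57 to 6.65% of the reads in line 1 and 11.2 to 11.3% in line 2. Mitochondrial transcripts took 4.18 to 4.38% and 8.19 to 8.79%. The predicted gene Gm10800 stood at 945 to 1232 TPM in line 1 and 21425 to 24438 TPM in line 2. Olfactory and vomeronasal receptor genes summed to 64.2 to 76.1 TPM and 385 to 445 TPM. At least 1 TPM was reached by 12793 to 12817 genes in line 1 and by 15222 to 15360 in line 2. The part of these library differences in the results was not tested.

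The blood cell markers were present in both lines. Ptprc (CD45) stood at 138 to 178 TPM in line 1 and 132 to 185 TPM in line 2, and Spi1 (PU.1, the myeloid master factor) at 366 to 414 and 303 to 337 TPM. Levels of Itgam (CD11b) were 124 to 175 and 214 to 265 TPM, of Cd33 63.3 to 73.6 and 109.7 to 119 TPM, and of the progenitor receptor Kit 10.2 to 14.2 and 28.4 to 33.1 TPM. By TPM these 3 were higher in every sample of line 2 than in any of line 1, but none was called in the fitted read counts. Fewer cells of a type and less RNA per cell cannot be told apart in bulk samples such as these.

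The lines differed across most of the expressed genome. Of 14307 genes tested, 4640 (32.4%) were higher and 4822 (33.7%) lower in line 2, together 66.1%. A difference of at least 1 on the log2 scale was reached by 2378 of the higher and 1748 of the lower genes, and one of at least 3 by 338 and 78. The median gene differed by 0.01. The 3 and 3 TPM values did not overlap between the lines in 9590 genes (67%). With so high a background, a share near 66.1% called in a list is close to that of all genes, and the lists below are read by how one-sided they are and how far their median lies from 0.01.

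The split between higher and lower depended on the scale. Without TMM scaling the calls were 6004 higher and 3594 lower, with upper-quartile scaling 5595 and 3973, and with limma on log2(TPM + 1) 6401 and 2217. The median log2 difference of all genes then moved from 0.01 to 0.24, 0.17 and 0.42. In mean TPM the median gene was 1.42-fold higher in line 2, so a gene with equal TPM in both lines has a fitted log2 difference below 0. The difference also followed level and gene size. With the genes in 10 classes of equal size by mean TPM, the lowest class had a median of 0.91 and the highest −0.71. In the highest class 70.6% of the genes were lower and 21.5% higher. A list of abundant genes can thus lean lower as genes of its level do, and no list was set against its level class. In 10 classes by genomic span, the median ran from −0.33 in class 3 to 0.58 in the class of the longest genes. The counts of each list below are therefore given in reads and on the TPM scale. The filter also acted by line: 1044 of the genes tested reached 1 TPM in samples of line 2 alone and 78 in samples of line 1 alone. Such a gene entered the test through the line where it is high, so its direction is no result. The same holds for each gene named below with all 3 samples of 1 line under 1 TPM. The fitted difference of such a gene is no test of direction. Some genes below are given by a fitted difference alone, without levels. For these, a rise or fall states only the sign of the fit, since genes tested through 1 line alone may be among them. Among the 13185 genes that reached 1 TPM in a sample of each line, 3710 were higher and 4758 lower, with a median of −0.08.

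**Figure D1:**
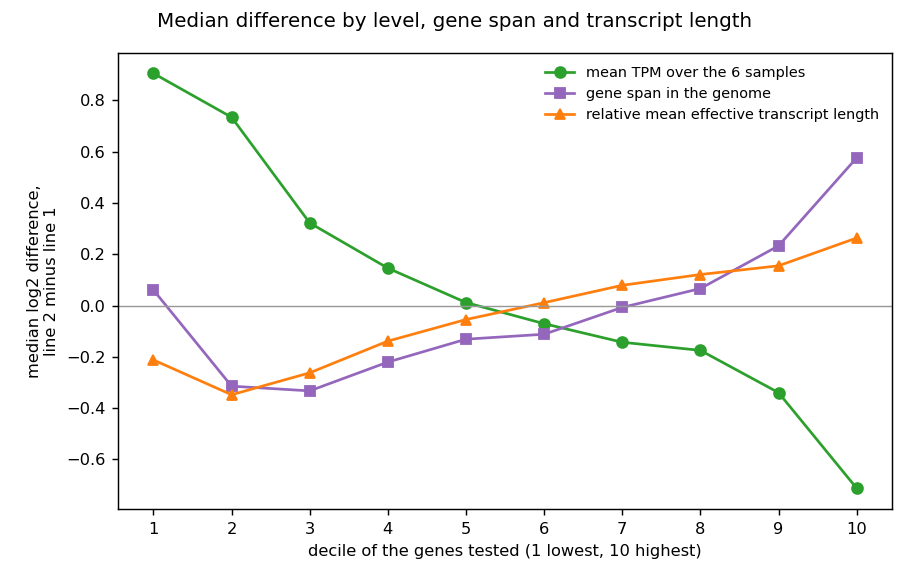
Median fitted log2 difference (y axis, line 2 minus line 1) of the genes tested, in 10 classes by mean TPM, by the gene's span in the genome and by relative mean effective transcript length (x axis, decile 1 lowest). Each point is a median over 1430 or 1431 genes; it falls from 0.91 to −0.71 with level and reaches 0.58 in the longest genes.

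**Figure D2:**
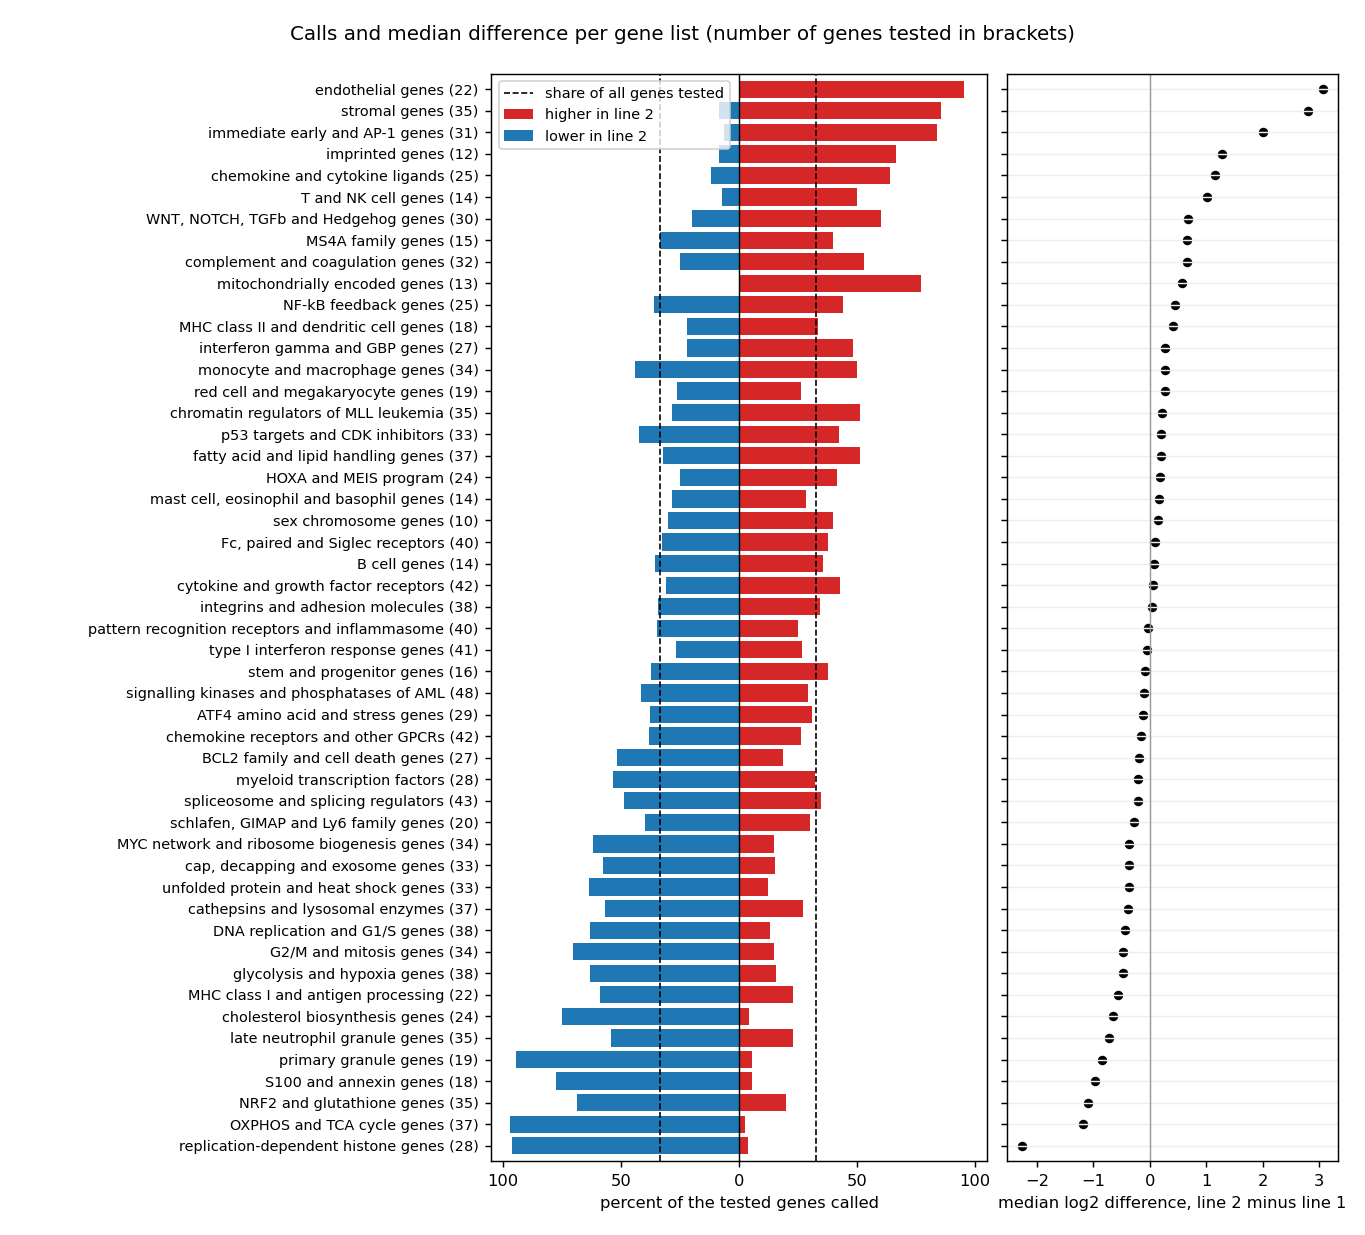
Left, percent of each gene list's tested members called higher (right of 0) or lower (left of 0) in line 2, with dashed lines at the shares of all genes tested (32.4% and 33.7%); right, each list's median log2 difference, both with the members tested only through 1 line included. Endothelial (3.06), stromal (2.80) and immediate early genes (2.01) lie at the higher end and histone (−2.25) and respiratory chain genes (−1.18) at the lower end.

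Both genes that the fusion joins were higher in line 2. Kmt2a measured 33.1, 35.4 and 38.9 TPM in the 3 samples of line 1 and 91.7, 87.1 and 91.2 TPM in those of line 2. The log2 difference was 0.95 ± 0.05 (SE, edgeR adjusted p = 5.16e-10). Mllt3 measured 45.9, 53.6 and 34.6 TPM in line 1 and 126, 157 and 131 TPM in line 2, a log2 difference of 1.14 ± 0.15 (adjusted p = 8.65e-06). In the CALM/AF10 lines, which carry another fusion, Mllt3 was at 2.26 to 5.87 and 2.92 to 4.58 TPM. The gene sums hold reads of the fusion and of the normal genes together, which cannot be told apart here. In the MLL/AF9 lines nearly all Mllt3 TPM lay on 1 short transcript, described with transcript usage.

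Of the HOXA and MEIS program, 24 of 31 genes were tested, of which 10 were higher and 6 lower, with a median of 0.18, and 12 higher and 1 lower on the TPM scale. Of the 23 that reached 1 TPM in each line, 9 were higher and 6 lower in reads. Hoxa9, a HOX gene through which MLL fusions act in mouse models, was at 186.1, 198 and 202.5 TPM in line 1 and 187.2, 193 and 202.7 TPM in line 2. The ranges overlap, and the fitted difference of −0.33 ± 0.05 (adjusted p = 9.36e-05) was lost without TMM scaling and on the TPM scale. Meis1, the HOX cofactor, measured 9.24, 9.20 and 10.6 TPM and 16.6, 19.3 and 19.3 TPM, and was higher in line 2 by 0.43 ± 0.09 (adjusted p = 6.59e-04). That call was lost when only protein-coding transcripts were counted, and the Meis1 transcripts themselves are described with transcript usage. Within the HOXA cluster the genes moved in both directions. Hoxa10 fell from 42.2, 41.8 and 38.5 TPM in line 1 to 21.6, 17.5 and 18.3 TPM in line 2 (−1.48 ± 0.07), while Hoxa3 rose from 10.9, 10.4 and 9.89 to 20.2, 24.02 and 43.4 TPM (0.93 ± 0.12). Both kept their direction under all alternatives run.

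Myc, the growth regulator, had nearly equal TPM in both lines, 137, 143 and 128 in line 1 and 144, 143 and 140.6 in line 2. The fitted log2 difference was −0.47 ± 0.05 (adjusted p = 2.23e-06), and its sign turned to 0.07 on the TPM scale. Dcps, the enzyme that the series inhibits elsewhere, measured 45.2, 34.7 and 34.4 TPM in line 1 and 35.9, 38.0 and 40.6 TPM in line 2. These values overlap, and the fitted difference of −0.37 ± 0.14 (adjusted p = 0.0262) turned to 0.01 on the TPM scale and was lost without replicate 1 or 3 of line 1 and without replicate 1 or 2 of line 2. Cdk6, a kinase that MLL-rearranged cells depend on, also depended on the scale. It had 195 to 205.4 TPM in line 1 and 378 to 448 TPM in line 2, yet a fitted difference of −0.63 ± 0.04 in reads. With an offset for the length of the transcripts used it was 0.61. Myb, which holds leukemic progenitors in their immature state, had 262 to 271 TPM in line 1 and 559 to 563 TPM in line 2 (0.62 ± 0.04), and kept this direction on both scales.

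Stem and progenitor genes were 6 higher and 6 lower of 16 tested in reads, and 9 higher and 3 lower on the TPM scale. In reads, 4 were higher and 6 lower of the 14 that reached 1 TPM in each line. Cd34, the surface mark of early progenitors and of vessels, measured 3.89, 3.94 and 5.05 TPM in line 1 and 13.6, 15.1 and 16.2 TPM in line 2 (1.35 ± 0.12). Tek, Tie1 and Egfl7, which stem cells share with endothelium, had fitted differences of 3.59, 2.52 and 3.25, given without levels. Ly6a (Sca-1) fell from 23.5, 22.6 and 19.8 to 11.7, 14.3 and 17.4 TPM (−1.03 ± 0.22).

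Immediate early genes were higher in line 2 nearly throughout. These genes are transcribed within minutes of a signal without new protein synthesis, through factors already present on their promoters, and encode mainly transcription factors of the FOS, JUN, EGR and NR4A families and the feedback phosphatases that end the signal. Of 31 tested, 26 were higher and 2 lower in line 2, with a median of 2.01. Of the 25 that reached 1 TPM in each line, 21 were higher and 2 lower. The sum of the list was 332 to 335 TPM in line 1 and 2605 to 2801 TPM in line 2. By limma on the TPM scale 27 were higher and none lower, also at an unadjusted p under 0.05.

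The promoters of 5 of the genes that rose are shown, since a binding site for CREB and ATF factors (TGACG, on either strand) and the serum response element (CArG box, CC, then 6 of A or T, then GG) are the elements through which signals are known to reach this class. Sequences are the 250 bases before the RefSeq start, GRCm38.p6, read along the gene, with matches in capitals. Fos lies at chr12:85473640-85473889, plus strand, Fosb at chr7:19310046-19310295, minus strand, Dusp1 at chr17:26508473-26508722, minus strand, Jun at chr4:95052223-95052472, minus strand and Zfp36 at chr7:28379229-28379478, minus strand.
Fos: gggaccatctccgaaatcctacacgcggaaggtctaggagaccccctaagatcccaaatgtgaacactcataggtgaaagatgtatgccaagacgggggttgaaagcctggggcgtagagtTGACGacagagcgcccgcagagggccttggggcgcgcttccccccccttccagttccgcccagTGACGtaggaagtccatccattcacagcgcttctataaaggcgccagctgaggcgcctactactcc
Fosb: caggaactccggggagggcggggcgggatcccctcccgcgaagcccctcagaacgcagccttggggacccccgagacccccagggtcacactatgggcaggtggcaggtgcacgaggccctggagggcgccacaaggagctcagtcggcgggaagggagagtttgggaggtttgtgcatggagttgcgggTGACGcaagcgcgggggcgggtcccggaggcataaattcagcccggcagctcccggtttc
Dusp1: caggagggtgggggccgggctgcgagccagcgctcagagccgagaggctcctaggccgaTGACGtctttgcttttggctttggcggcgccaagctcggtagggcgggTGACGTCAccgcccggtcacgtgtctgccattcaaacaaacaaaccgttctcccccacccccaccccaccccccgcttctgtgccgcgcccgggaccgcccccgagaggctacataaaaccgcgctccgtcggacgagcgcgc
Jun: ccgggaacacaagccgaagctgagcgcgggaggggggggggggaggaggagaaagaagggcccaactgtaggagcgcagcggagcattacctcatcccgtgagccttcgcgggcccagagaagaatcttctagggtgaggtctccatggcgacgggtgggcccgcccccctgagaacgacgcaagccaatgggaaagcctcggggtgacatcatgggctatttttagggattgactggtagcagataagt
Zfp36: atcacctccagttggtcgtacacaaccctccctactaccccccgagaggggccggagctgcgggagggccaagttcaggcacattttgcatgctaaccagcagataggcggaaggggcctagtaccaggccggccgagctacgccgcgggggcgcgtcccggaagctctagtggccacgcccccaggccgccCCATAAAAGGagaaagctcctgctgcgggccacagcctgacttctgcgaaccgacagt
Fos holds TGACG 129 and 66 bases before its start, and Fosb 60 bases before. Dusp1 holds 3 matches, 2 of which overlap on opposite strands in TGACGTCA. Jun holds no exact match to either string, and Zfp36 holds a CArG box. With the first window listed for each gene, 12 of the 22 higher members counted (54.5%) hold TGACG and 2 hold a CArG box. Windows on a chromosome that was left out are not counted, and Egr1 is not among the 22. Egr2 is the 1 member with several windows; its first holds neither, but 3 of its 5 hold TGACG and 4 a CArG box, which makes 13 and 3 members when any window counts. Among 27025 mouse promoters of this length, also the first of each gene but with no chromosome left out, 17.9% hold TGACG and 1.4% a CArG box. The members were listed as known genes of the class, so their share describes the class and is no result about line 2. Among members that were not higher, Spred2 holds TGACG, and Fosl2, Spry2, Dusp10 and Spred1 hold neither. A match is a string of letters and not a shown site. Sites that differ from these strings, such as tgacatca in the window of Jun, or that lie beyond the 250 bases, were not counted.

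Egr1, the zinc finger factor of the class, measured 1.58, 1.41 and 2.44 TPM in line 1 and 266, 266 and 243 TPM in line 2. It was higher in all 3 samples by a log2 difference of 6.75 ± 0.13 (adjusted p = 2.77e-14). Fosb, a partner of JUN in the dimer AP-1, measured 3.33, 4.24 and 3.99 and 248, 253 and 223 TPM. Its difference was 5.58 ± 0.09 (adjusted p = 1.02e-14). Jun measured 6.42, 5.31 and 6.04 TPM in line 1 and 265, 261 and 244.1 TPM in line 2 (5.04 ± 0.07), and Fos 8.72, 9.57 and 11.5 and 219.8, 217 and 231 TPM (4.39 ± 0.09). The lines did not overlap in any of the 4 genes. The phosphatase Dusp1, which switches off the MAP kinases p38 and JNK, measured 11.5, 12.4 and 13.2 TPM in line 1 and 316, 311 and 296 TPM in line 2 (4.37 ± 0.07).

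The zinc finger factor Klf2 was higher in line 2, at 323 to 358.2 TPM against 17.5 to 19.8 TPM in line 1 (3.78 ± 0.06). The stress factor Atf3, tested only through line 2, was at 12.9 to 15.9 TPM in line 2 and 0.292 to 0.957 TPM in line 1 (4.17 ± 0.29). Jund, the JUN member usually present at rest, stood at 18.6 to 21.04 TPM in line 1 and 201 to 221 TPM in line 2 (3.02 ± 0.07). Zfp36, which marks inflammatory mRNAs for decay, was at 45.7 to 48.7 and 244.3 to 272 TPM (2.12 ± 0.06). The exceptions in read counts were Fosl2 and Spry2. Fosl2 measured 49.9, 50.6 and 41.9 TPM in line 1 and 51.3, 49.96 and 43.8 TPM in line 2, and its difference of −0.44 ± 0.07 turned to 0.03 on the TPM scale. Spry2, a brake on receptor kinases, differed by −0.60 ± 0.11, a call lost on the TPM scale. The high state was not particular to line 2 among the lines: CALM/AF10 #1 had 203.03 to 231 TPM of Fos and 109 to 115 TPM of Egr1, against 34.6 to 40.3 and 4.94 to 5.16 TPM in CALM/AF10 #2. The libraries of these 2 lines differed too. Gm10800 stood at 9736 to 11034 TPM in CALM/AF10 #1 and 1188 to 1423 TPM in CALM/AF10 #2. Mitochondrial transcripts took 7.87 to 7.89% and 3.96 to 4.06% of the reads, and intron-retaining transcripts 6.32 to 6.37% and 5.72 to 5.84%. A link between these library differences and the high state was not tested.

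**Figure D3:**
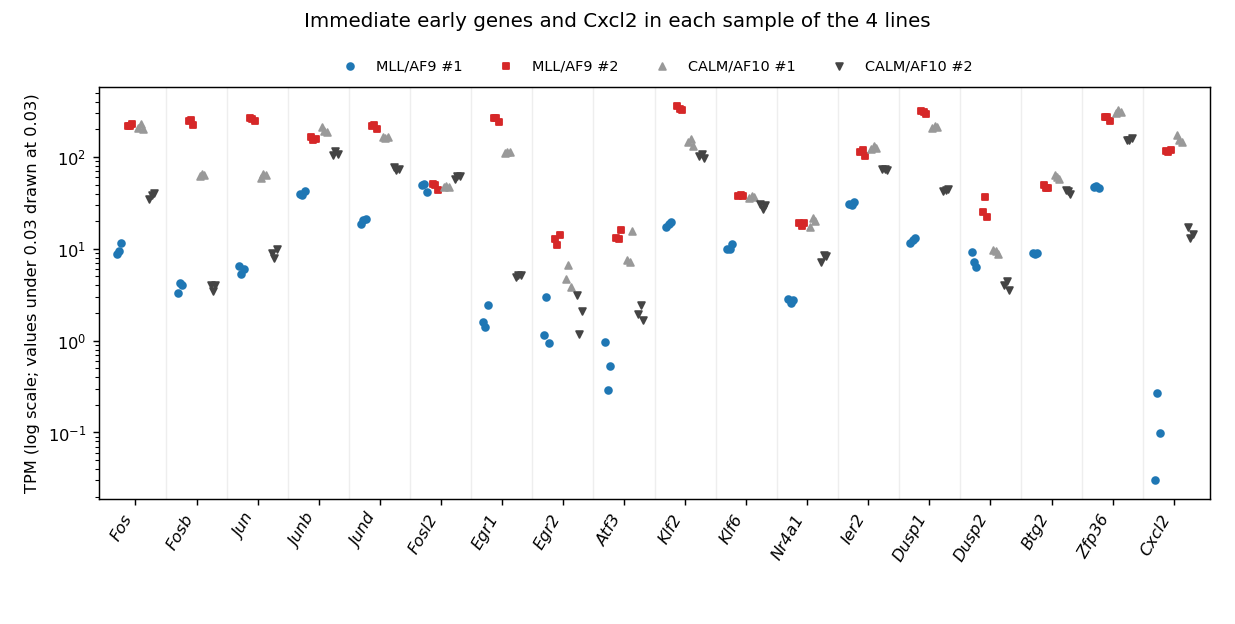
TPM (log axis) of immediate early genes and Cxcl2 in each of the 12 line samples, 3 points per line and gene. MLL/AF9 #2 (squares) lies above MLL/AF9 #1 (circles) for most genes shown, with Egr1 at 1.41 to 2.44 in line 1 and 243 to 266 in line 2, and Fosl2 at about the same level in both.

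Inflammatory ligands were more often higher than lower in line 2. Cxcl2, a neutrophil chemokine, was at 0, 0.270 and 0.0981 TPM in line 1 and 116, 114 and 119 TPM in line 2 (8.07 ± 0.35). It was under 1 TPM in every sample of line 1 and so was tested only through line 2. Of 25 chemokine and cytokine ligands tested, 16 were higher and 3 lower, with a median of 1.15, and 18 higher and 3 lower on the TPM scale. Of the 20 that reached 1 TPM in each line, 11 were higher and 3 lower. The related chemokine Cxcl1 was at 0 to 0.396 and 6.73 to 7.57 TPM (5.29 ± 0.77), the monocyte attractant Ccl2 at 0.731 to 1.60 and 14.8 to 19.3 TPM (3.50 ± 0.35), and the IL-6 family cytokine Lif at 0.00861 to 0.636 and 4.77 to 8.54 TPM (4.27 ± 0.54). Like Cxcl2, Cxcl1 and Lif were tested only through line 2. Genes that NF-kB induces and that restrain it were 11 higher and 9 lower of 25 in reads, and 15 higher and 3 lower on the TPM scale. In reads, 8 were higher and 9 lower of the 22 that reached 1 TPM in each line. Ier3, Nfkbiz and Socs3 rose by 2.28, 1.97 and 2.83. Ptgs2, the inducible cyclooxygenase, was at 0, 0.108 and 0.0772 TPM in line 1 and 3.95, 8.35 and 2.15 TPM in line 2 (3.84 ± 0.65), and was tested only through line 2.

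Of the type I interferon response genes, 11 of 41 were higher and 11 lower, with a median of −0.04; on the TPM scale 18 were higher and 2 lower. Mx1 and Herc6 rose by 1.05 and 0.98, and Ifi27l2a had a log2 difference of −1.39. The guanylate-binding protein genes Gbp8 and Gbp5, which interferon gamma induces, had fitted differences of 3.63 and 1.70, given without levels. The ligand Cxcl10 was at 5.34 to 9.77 TPM in line 1 and 19.5 to 28.9 TPM in line 2 (1.07 ± 0.19), a call lost on protein-coding transcripts alone.

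Of 34 monocyte and macrophage genes tested, 17 were higher and 15 lower in line 2 in reads, and 18 higher and 8 lower on the TPM scale. Of the 29 that reached 1 TPM in each line, 12 were higher and 15 lower in reads. Several genes typical of tissue macrophages were among the higher ones and several typical of monocytes among the lower ones, a division made after the values were seen. The complement component C1qa, which macrophages make, measured 1.90, 1.46 and 1.35 TPM in line 1 and 34.5, 31.9 and 35.7 TPM in line 2 (4.04 ± 0.18). C1qb and C1qc rose by 3.64 ± 0.16 and 3.46 ± 0.17. The receptor for dying cells Mertk was at 0.546 to 0.815 TPM in line 1 and 11.8 to 14.3 TPM in line 2 (3.83 ± 0.15), and the mannose receptor Mrc1 at 0.403 to 0.817 and 10.3 to 10.9 TPM (3.77 ± 0.17). Mertk and Mrc1 were tested only through line 2. Cd36, a scavenger receptor, rose by 3.14 ± 0.33, and Ms4a7 by 2.88 ± 0.26.

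Ly6c2, the surface mark of inflammatory monocytes, measured 5578, 5157 and 5328 TPM in line 1 and 1613, 1592 and 1560.4 TPM in line 2 (−2.17 ± 0.04, adjusted p = 1.06e-14). It was among the strongest genes of either line, with no overlap between them. Lyz2 (lysozyme) was at 556 to 603 TPM in line 1 and 304 to 352 TPM in line 2 (−1.20 ± 0.05), and Ms4a6c at 239 to 258 and 113 to 118 TPM (−1.64 ± 0.05).

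Genes of the macrophages that recycle iron in spleen and marrow were looked up after the C1q genes had been seen and are given as levels. Cd5l was at 0.613, 0.669 and 0.634 TPM in line 1 and 32.4, 26.5 and 32.1 TPM in line 2. Vcam1, which such macrophages and stroma display, was at 11.5 to 15.01 and 72.5 to 73.6 TPM, and the lipid carrier Apoe at 124 to 134 and 682 to 786 TPM. The iron exporter Slc40a1 was at 2.93 to 6.08 TPM in line 1 and 29.4 to 31.4 TPM in line 2, and Spic, the factor of red pulp macrophages, at 1.95 to 3.60 and 17.5 to 21.3 TPM. Over 16 such genes the sum was 327 to 373 TPM in line 1, 1116 to 1247 TPM in line 2, 174 to 185 TPM in CALM/AF10 #1 and 197 to 229 TPM in CALM/AF10 #2. Apoe was the largest member of the sum in line 2. Not all members were higher: Hpgd, a prostaglandin-degrading enzyme, was at 139.6 to 173.4 TPM in line 1 and 66.4 to 74.3 TPM in line 2. Line 2 had the highest sum of the 4 lines.

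Of 37 fatty acid and lipid handling genes tested, 19 were higher and 12 lower, and 25 higher and 3 lower on the TPM scale. Of the 32 that reached 1 TPM in each line, 14 were higher and 12 lower in reads. The cholesterol exporter Abca1 measured 0.516, 0.314 and 0.320 TPM in line 1 and 11.2, 13.2 and 10.8 TPM in line 2 (4.30 ± 0.15), and Fabp4, a fatty acid carrier of fat cells, vessels and macrophages, 1.78, 2.22 and 2.15 and 26.2, 20.5 and 25.3 TPM (3.86 ± 0.17). Abca1 was tested only through line 2. Of complement and coagulation genes, 17 of 32 were higher and 8 lower, and 20 higher and 4 lower on the TPM scale. In reads, 12 were higher and 7 lower of the 26 that reached 1 TPM in each line. The complement receptor C3ar1 rose by 3.24 ± 0.35.

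Primary granule genes, which promyelocytes and granulocyte-monocyte progenitors make, were lower in line 2 as a body. Of 19 tested, 18 were lower and 1 higher, with a median of −0.85, where the highest of the 10 level classes had −0.71. On the TPM scale 14 were lower and 3 higher. Elane (neutrophil elastase) measured 5438, 5644 and 5109 TPM in line 1 and 2815, 2936 and 2698 TPM in line 2 (−1.34 ± 0.05). Srgn, the proteoglycan on which granule proteins are packed, was at 1349.7 to 1451 TPM in line 1 and 622 to 644 TPM in line 2 (−1.66 ± 0.04), and Plac8 at 2105 to 2387 and 1195 to 1411 TPM (−1.38 ± 0.05). Mpo (myeloperoxidase) stood at 4073 to 4191 and 3508 to 3744 TPM (−0.70 ± 0.03). The exception was Rab44, with 134 to 147 TPM in line 1 and 409.9 to 443 TPM in line 2 (1.13 ± 0.04).

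Late neutrophil granule genes were 8 higher and 19 lower of 35, and 10 higher and 15 lower on the TPM scale. Ltf (lactoferrin) was lower in line 2, at 255 to 379.8 TPM against 426 to 532 TPM in line 1 (−1.54 ± 0.08), and Chil1 and Ly6g were lower with log2 differences of −2.82 ± 0.33 and −1.77 ± 0.38, whereas the protease inhibitor Stfa2 was higher in line 2, at 94.8 to 118 TPM against 22.97 to 30.4 TPM in line 1 (1.61 ± 0.16). S100 and annexin genes, which rise with myeloid maturation, were 14 lower and 1 higher of 18, with a median of −0.97, and 12 lower and 2 higher on the TPM scale. S100a11 measured 2407, 2495 and 2191 TPM in line 1 and 1093, 1036 and 1008 TPM in line 2 (−1.58 ± 0.06). S100a4 and S100a10 were lower, with log2 differences of −2.22 ± 0.31 and −2.16 ± 0.15.

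Transcripts of stromal cells, vessels and skeletal muscle were higher in line 2. Stromal genes, made by fibroblasts and bone marrow stroma, were 30 higher and 3 lower of 35 tested, with a median of 2.80, and 31 higher and 2 lower on the TPM scale. Of these, 16 were under 1 TPM in every sample of line 1 and so were tested only through line 2. Of the 19 that reached 1 TPM in each line, 14 were higher and 3 lower, with a median of 2.17. The sum of the list was 462 to 498 TPM in line 1 and 1134 to 1216 TPM in line 2. The type I collagen gene Col1a1 measured 0.811, 1.47 and 0.719 TPM in line 1 and 36.4, 39.4 and 38.4 TPM in line 2 (5.07 ± 0.10), and its partner chain Col1a2 1.17, 1.43 and 1.63 and 27.6, 37.9 and 28.1 TPM (4.14 ± 0.10). Neither gene overlapped between the lines. Ccn1, Ccn2 and Igfbp3, secreted matrix regulators, had fitted differences of 5.18, 4.59 and 4.51, given without levels. Pdgfrb, a receptor for platelet-derived growth factor that marks pericytes, was at 0.739 to 0.913 TPM in line 1 and 5.81 to 6.86 TPM in line 2 (2.54 ± 0.14), and was among those tested only through line 2.

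Endothelial genes were 21 higher and none lower of 22 tested, with a median of 3.06, and 20 higher and none lower by limma on the TPM scale. None was lower at an unadjusted p under 0.05 in edgeR, limma or DESeq2. Under 1 TPM in every sample of line 1, and so tested only through line 2, were 13 of the 22. Of the 9 that reached 1 TPM in each line, 8 were higher and none lower, with a median of 1.78. The sum of the list was 59.95 to 63.2 TPM in line 1 and 206 to 245 TPM in line 2. Robo4, a guidance receptor of vessels, measured 0.156, 0.106 and 0.0342 TPM in line 1 and 3.31, 2.49 and 3.60 TPM in line 2 (4.65 ± 0.41), and Stab2, the scavenger receptor of sinusoids, 0.575, 0.526 and 0.551 and 8.72, 9.31 and 8.54 TPM (3.61 ± 0.10). Robo4 and Stab2 were among those tested only through line 2. Notch3 and Notch4, receptors of mural cells and vessels, had fitted differences of 3.74 and 2.15, given without levels. In their list of WNT, NOTCH, TGF-beta and Hedgehog genes, 18 were higher and 6 lower of 30 in reads, and 18 higher and 1 lower on the TPM scale. Of the 24 that reached 1 TPM in each line, 12 were higher and 6 lower in reads.

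Among called genes with a mean of at least 5 TPM, the largest fitted rise was that of Myh4, a fast skeletal muscle myosin, with 0, 0 and 0.0157 TPM in line 1 and 9.16, 8.11 and 9.70 TPM in line 2. With so few reads in line 1, its fitted fold depends on the prior count and is not given. Tnnc2, the fast troponin C, was listed at 0, 0 and 0 TPM in line 1 and 9.96, 8 and 22.3 TPM in line 2. Acta1 (skeletal actin), Actn3, Myh1 and Ttn (titin) followed among the 15 largest rises. All of these muscle genes were under 1 TPM in every sample of line 1 and so were tested only through line 2. Acta1 measured 0.357, 0.378 and 0.147 TPM in line 1 and 22.5, 22.8 and 21.2 TPM in line 2, and Actn3 0.0271, 0.275 and 0.0557 and 10.1, 9.05 and 10.2 TPM. Over 25 skeletal muscle genes, looked up after these had been seen, the sum was 24.4 to 27.6 TPM in line 1, 211 to 235 TPM in line 2, 24.5 to 33.04 TPM in CALM/AF10 #1 and 20.97 to 25.4 TPM in CALM/AF10 #2. Line 2 alone of the 4 lines lay above 200 TPM. The 6 liver genes looked up likewise, Alb among them, summed to 0.0165 to 0.289 TPM in line 1 and 0.604 to 2.47 TPM in line 2.

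Of marrow stroma and bone genes looked up after the fact, the leptin receptor Lepr was at 0.433 to 2.22 TPM in line 1 and 18.6 to 25.4 TPM in line 2, and the stem cell factor Kitl at 0.189 to 0.459 and 6.95 to 9.33 TPM. The bone protein gene Ibsp was at 0.511 to 0.986 and 8.49 to 14.2 TPM. Not all of the 15 genes looked up behaved so. Mmp9 overlapped between the lines, at 53.4 to 61.5 TPM in line 1 and 51.1 to 72.8 TPM in line 2. Bglap was at 0 TPM in line 1 and 1.41 to 3.41 TPM in line 2, but at 11.4 to 24.6 TPM in CALM/AF10 #1. T and NK cell genes were 7 higher and 1 lower of 14 tested, and 8 higher and none lower by limma on the TPM scale, also at an unadjusted p under 0.05. Of the 9 that reached 1 TPM in each line, 3 were higher and 1 lower in reads. Cd4, on helper T cells and some macrophages, measured 2.54, 2.09 and 2.47 TPM in line 1 and 18.6, 25.03 and 24.6 TPM in line 2 (3.37 ± 0.19), while Cd3d was at 7.47 to 8.54 and 18.6 to 23.4 TPM (1.01 ± 0.14). The part that RNA of other cells has in the rises of these lists was not tested.

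**Figure D4:**
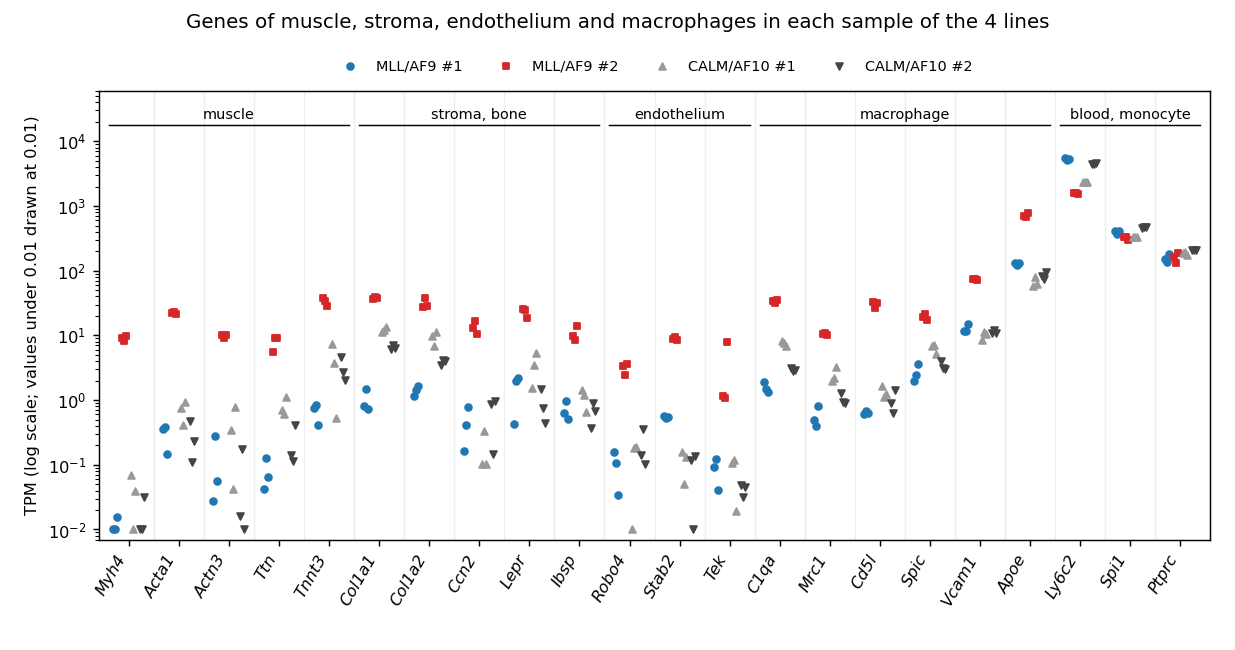
TPM (log axis) of muscle, stromal, endothelial, macrophage and blood cell genes in each of the 12 line samples, 3 points per line and gene. In MLL/AF9 #2 (squares) Myh4, Acta1, Col1a1 and C1qa lie above all samples of MLL/AF9 #1 (circles), while Ptprc overlaps between the lines and Ly6c2 is lower in line 2.

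Red cell, mast cell and B cell genes were evenly divided in reads, with 5 higher and 5 lower of 19 for red cells and megakaryocytes, 4 and 4 of 14 for mast cells, eosinophils and basophils, and 5 and 5 of 14 for B cells. On the TPM scale the counts were 6 higher and 1 lower, 4 and 2, and 6 and 4. In reads, 3 were higher and 5 lower of the 11 B cell genes that reached 1 TPM in each line. Of the 11 mast cell, eosinophil and basophil genes that did so, 2 were higher and 3 lower. The red cell and megakaryocyte genes summed to 106 to 115 TPM in line 1 and 189 to 265 TPM in line 2. The platelet and vessel protein Vwf was higher in line 2, at 10.7 to 13.6 TPM against 2.44 to 2.76 TPM in line 1 (1.78 ± 0.17), and the beta globin Hbb-bs was higher in line 2, at 7.21 to 10.1 TPM against 1.01 to 2.31 TPM in line 1 (1.98 ± 0.47); globin copies share sequence, so reads may be split among them. Il5ra, the eosinophil receptor, rose by 1.53 ± 0.24, and Hdc, the histamine-forming enzyme, had a fitted difference of −0.57 ± 0.10 that turned to 0.05 on the TPM scale. Ank1, the red cell ankyrin, had one of −1.69 ± 0.23 that turned to 0.23. The dendritic cell receptor Clec9a had a fitted difference of 2.96 ± 0.59, given without levels. H2-DMa, which loads MHC class II, was lower in line 2, at 12.3 to 24.8 TPM against 37.7 to 43.5 TPM in line 1 (−1.81 ± 0.11). B2m, the light chain of MHC class I, fell from 1677, 1621 and 1799.9 to 689, 695 and 650.5 TPM (−1.73 ± 0.05).

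Immunoglobulin segments supplied all 15 of the largest falls and 5 of the 15 largest rises. Of 216 variable segments in the files, 123 were tested; 13 were at 5 TPM or more in line 1 and under 2 in line 2, 5 the reverse, and 16 at 5 TPM or more in both. Igkv10-94 measured 26.5, 33.9 and 43.9 TPM in line 1 and 0, 0 and 0 TPM in line 2, and Ighv1-84 0, 0 and 0 and 15.9, 35.5 and 2.55 TPM. The constant regions were present in both lines, Igkc at 695 to 740.0 and 277 to 301 TPM (−1.69 ± 0.06) and Ighm at 114 to 118 and 48.7 to 54.9 TPM (−1.58 ± 0.06). The heavy chain gene Igha, looked up after the fact, differed less in TPM, at 345 to 348 and 300 to 344. Heavy chain variable segments summed to 784 to 983 TPM in line 1 and 864 to 956 TPM in line 2. Kappa segments summed to 710 to 795 and 412 to 485 TPM. Many segments are near-identical, so single segments are uncertain.

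Replication-dependent histone genes, which are made in S phase and mostly lack a poly(A) tail, had the lowest median of the lists. Of 28 tested, 27 were lower and 1 higher in line 2, with a median of −2.25, and these counts were the same on the TPM scale and without TMM scaling. Hist1h4d measured 6439.9, 5860.0 and 7360.1 TPM in line 1 and 1205, 1112 and 1129.7 TPM in line 2 (−2.91 ± 0.07), and Hist1h2bb 4368, 3995 and 4046 and 609, 521.4 and 617 TPM (−3.23 ± 0.06). Hist1h2ad was the exception, with 0, 0 and 1.69 TPM in line 1 and 13.1, 5.12 and 7.15 TPM in line 2 (3.42 ± 1.00); its call was lost in DESeq2. Histone copies are near-identical, and reads may be split among them.

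In the cell cycle lists the balance depended on the scale, and for DNA replication it turned. Of 38 DNA replication and G1/S genes, 24 were lower and 5 higher, but 7 lower and 12 higher on the TPM scale. Pcna, the replication clamp, was lower in line 2, at 96.3 to 116 TPM against 166.9 to 172 TPM in line 1 (−1.27 ± 0.07). Of 34 mitosis genes, 24 were lower and 5 higher, against 11 lower and 8 higher on the TPM scale. Nusap1, which bundles spindle microtubules, measured 217, 233 and 277 TPM in line 1 and 78.1, 67.3 and 73.7 TPM in line 2 (−1.90 ± 0.08), and Ube2c, Ccna2 and Cdk1 were lower, with log2 differences of −1.76, −1.64 and −1.42.

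Nuclear and mitochondrial genes of the respiratory chain differed in opposite directions. Of 37 nuclear genes of oxidative phosphorylation and the TCA cycle, 36 were lower and 1 higher, with a median of −1.18, and 27 lower and 1 higher on the TPM scale. Cox7a2 measured 243, 228 and 249.6 TPM in line 1 and 88.7, 86.5 and 92.5 TPM in line 2 (−1.83 ± 0.06), and Cox5a 184 to 204.4 and 79.9 to 88.2 TPM (−1.64 ± 0.07). Of the 13 mitochondrially encoded protein genes 10 were higher and none lower, with a median of 0.56; limma on the TPM scale gave the same counts, and none was lower at an unadjusted p under 0.05 in edgeR, limma or DESeq2. The cytochrome oxidase gene mt-Co1 measured 4121, 3951 and 4607 TPM in line 1 and 14252, 14374 and 13492 TPM in line 2 (1.33 ± 0.04). mt-Nd4 was at 1145 to 1226 and 3526 to 3595 TPM (1.19 ± 0.03).

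For glycolysis and ribosome biogenesis genes the direction depended on the scale. Glycolysis and hypoxia genes were 24 lower and 6 higher of 38, against 12 lower and 13 higher on the TPM scale; Gapdh was lower in line 2, at 2568 to 2779.5 TPM against 5639.8 to 7035 TPM in line 1 (−1.71 ± 0.05). The vessel-enriched hypoxia factor Epas1 was higher in line 2, at 7.61 to 9.06 TPM against 1.10 to 1.78 TPM in line 1 (2.17 ± 0.16). The 77 cytosolic ribosomal protein genes, looked up after Rps24 had appeared among the most abundant called genes, summed to 101896 to 110107 TPM in line 1 and 47490.5 to 51436 TPM in line 2. MYC network and ribosome biogenesis genes were 21 lower and 5 higher in reads but 9 lower and 16 higher on the TPM scale. Npm1 was lower in line 2, at 361 to 425 TPM against 679.7 to 725 TPM in line 1 (−1.39 ± 0.05).

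NRF2 and glutathione genes, the antioxidant response, were 24 lower and 7 higher of 35, with a median of −1.09, and 21 lower and 8 higher on the TPM scale. Sod1 (superoxide dismutase) was lower in line 2, at 201.9 to 216 TPM against 495 to 553 TPM in line 1 (−1.75 ± 0.06), whereas Slc7a11, the cystine importer, was higher in line 2, at 13.4 to 15.8 TPM against 3.35 to 3.63 TPM in line 1 (1.59 ± 0.12). Cholesterol synthesis genes were 18 lower and 1 higher of 24, and 8 lower and 2 higher on the TPM scale, with Hmgcs1 at 6.32 to 7.37 TPM in line 1 and 3.22 to 3.67 TPM in line 2 (−1.42 ± 0.13). Among unfolded protein and heat shock genes, 21 were lower and 4 higher, against 10 lower and 12 higher on the TPM scale. The stress-inducible chaperone Hspa1a measured 0.863, 1.40 and 0.572 TPM in line 1 and 20.3, 23.1 and 25.7 TPM in line 2 (4.20 ± 0.22); it has a near-identical copy, Hspa1b, which rose by 1.88 ± 0.14. The constitutive chaperones Hsp90ab1 and Hspd1 were lower, with log2 differences of −1.24 and −1.18.

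Among p53 targets and CDK inhibitors, 14 were higher and 14 lower of 33 in reads, and 15 higher and 8 lower on the TPM scale. In reads, 12 were higher and 14 lower of the 31 that reached 1 TPM in each line. Btg2, which is also an immediate early gene, was higher in line 2, at 46.2 to 49.7 TPM against 8.81 to 9.03 TPM in line 1 (2.01 ± 0.07). Cell death genes of the BCL2 family were 5 higher and 14 lower in reads but 11 higher and 2 lower on the TPM scale. Chromatin regulators of MLL leukemia were 18 higher and 10 lower of 35 in reads, and 29 higher and none lower by limma on the TPM scale, where 1 was lower at an unadjusted p under 0.05. Dnmt3a, the de novo DNA methyltransferase, measured 8.15, 13.2 and 7.99 TPM in line 1 and 26.1, 33.8 and 39.6 TPM in line 2 (1.73 ± 0.12). The cap, decapping and exosome genes, the pathway of Dcps, were 5 higher and 19 lower of 33 in reads, and 10 higher and 7 lower on the TPM scale. Hint1, a nucleotide hydrolase related to Dcps, was lower in line 2, at 100.1 to 129.5 TPM against 309.6 to 334 TPM in line 1 (−1.91 ± 0.08). Spliceosome genes were 15 higher and 21 lower in reads and 23 higher and 8 lower on the TPM scale. Clk1, a kinase of splicing factors, had a difference of 1.26 ± 0.06 that turned to −1.21 when only protein-coding transcripts were counted.

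Imprinted genes, silent on 1 parental copy, were 8 higher and 1 lower of 12 tested, with a median of 1.29, and 8 higher and none lower by limma on the TPM scale, where 1 was lower at an unadjusted p under 0.05. Of the 8 that reached 1 TPM in each line, 4 were higher and 1 lower in reads. Grb10 and Plagl1 measured 0.377, 0.109 and 0.103 and 0.457, 0.265 and 0.430 TPM in line 1, and 3.58, 1.17 and 3.65 and 1.88, 6.14 and 4.33 TPM in line 2. The differences were 2.99 ± 0.45 and 2.89 ± 0.40, but both genes were under 1 TPM in every sample of line 1 and so were tested only through line 2. Of genes on the sex chromosomes, Kdm5d, on chromosome Y, was at 6.90 to 10.02 and 20.6 to 24.4 TPM (1.09 ± 0.07), and Eif2s3x, on chromosome X, at 29.7 to 31.7 and 15.8 to 18.9 TPM (−1.29 ± 0.07). The chromosome medians of the fitted difference lay between −0.19 (chromosome 15) and 0.16 (chromosome 1) over the 19 autosomes, and at −0.10 on chromosome X. The 39 genes tested on chromosome Y had a median of 2.26, but 18 of them were under 1 TPM in every sample of line 1 and so were tested only through line 2. Of the other 21, 14 were higher, and their median was 1.85.

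The lines also differed in which transcripts of a gene they used. Of 7424 genes with 2 or more expressed transcripts, 2608 (35.1%) changed in transcript usage (edgeR diffSpliceDGE, adjusted p under 0.05), and in 889 of these a different transcript led in each line. The leading transcript went from protein-coding in line 1 to intron-retaining in line 2 in 231 genes and the other way in 27, while in 276 it went from 1 protein-coding transcript to another. The count fell to 884 with Simes' method over single transcripts and to 1015 of 4803 genes on protein-coding transcripts alone. Of 1843 changed genes with a tested intron-retaining transcript, 1598 gave those transcripts a larger share of the gene's TPM in line 2, by a median of 10.04 percentage points over the 1843. Over all 4354 tested genes with such a transcript, 3535 had a larger share, by a median of 7.86 points. This moves with the larger share of intron-retaining reads in all 3 libraries of line 2, whose part in the switches was not tested.

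Dusp1 combined a change of level and of transcript. Its protein-coding transcript Dusp1-202 made up 4.35%, 0% and 8.003% of the gene's TPM in the samples of line 1 and 73.3%, 74.8% and 75.2% in line 2 (adjusted p = 7.68e-05). The intron-retaining Dusp1-203 took 61.3% ± 8.50 (SD) in line 1 and 17.3% ± 2.66 in line 2. Most of the little Dusp1 RNA of line 1 was thus assigned to other transcripts, and most of that of line 2 to the protein-coding one, the reverse of the general trend.

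In Meis1 the protein-coding Meis1-201 went from 75.6%, 54.7% and 65.8% of the gene's TPM in line 1 to 46.1%, 33.8% and 37.9% in line 2, and the intron-retaining Meis1-205 from 7.01% ± 2.95 to 31.2% ± 0.654 (SD; gene-level adjusted p = 1.73e-04). In TPM, Meis1-201 measured 6.98, 5.03 and 6.97 in line 1 and 7.67, 6.52 and 7.33 in line 2. Kmt2a shifted less: the protein-coding Kmt2a-203 took 45.4% ± 2.60 in line 1 and 53.2% ± 0.369 in line 2, and Kmt2a-204, annotated as a target of nonsense-mediated decay, 37.9% ± 2.04 and 23.8% ± 0.0943 (gene-level adjusted p = 4.24e-06). Nearly all Mllt3 TPM was on the 1 transcript Mllt3-207 in both lines, 96.3% ± 0.441 and 98.004% ± 0.607. Its effective length is 222 bases, so the Mllt3 levels of these lines rest mainly on a short transcript.

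Tsc22d1, a TGF-beta induced regulator, moved away from its protein-coding transcript Tsc22d1-201, from 94.3%, 86.8% and 95.6% in line 1 to 18.6%, 29.2% and 17.1% in line 2 (adjusted p = 1.10e-04). Eif4ebp1, the repressor of cap-dependent translation, moved the other way, with Eif4ebp1-201 at 16.7% ± 2.36 (SD) in line 1 and 80.3% ± 18.1 in line 2 (adjusted p = 0.0151). Zfp358 exchanged 2 protein-coding transcripts, Zfp358-201 taking 97.1% ± 2.65 (SD) in line 1 and 35.9%, 6.79% and 58.5% in the samples of line 2, which varied widely. Zfp358-202 took 0.924% ± 1.60 and 64.2% ± 26.4. In Donson, a replication fork protein, the decay-annotated Donson-208 took 68.3% ± 10.7 in line 1 and was listed at 0 in line 2, while the intron-retaining Donson-204 went from 14.6% ± 10.4 to 46.7% ± 15.8. Snrnp25, of the minor spliceosome, led with Snrnp25-205 (65.2% ± 5.83) in line 1 and with Snrnp25-204 (61.0% ± 15.5) in line 2. Mob2, Hacd1, Mthfs and Nat9 complete the 10 largest exchanges that met the naming rule. Shares of overlapping transcripts are estimates, and the error of assigning reads to them enters only as far as it varies between samples.

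**Figure D5:**
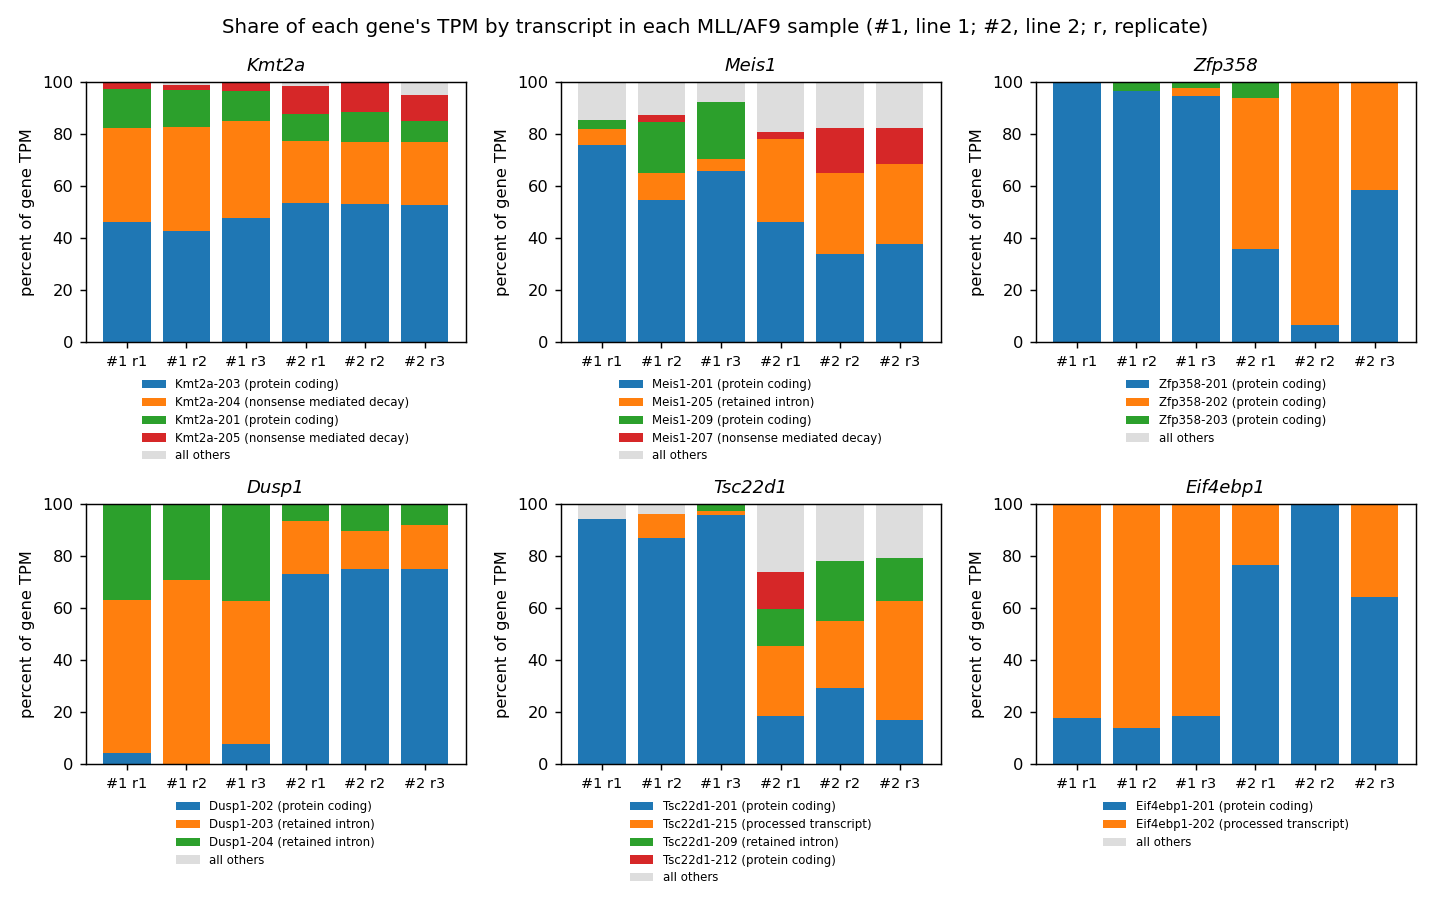
Percent of each gene's TPM (y axis) on its leading transcripts in each MLL/AF9 sample (x axis, 3 of line 1 and 3 of line 2), for Kmt2a, Meis1, Zfp358, Dusp1, Tsc22d1 and Eif4ebp1; colours stand for transcripts and grey for all others. The 3 samples of line 2 differ widely in Zfp358; Dusp1-202 rises from 4.12% ± 4.01 to 74.4% ± 1.03 (SD) and Tsc22d1-201 falls from 92.2% ± 4.71 to 21.6% ± 6.61.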

How the data were processed

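Before deposit, the authors computed for each transcript an estimated count of reads and, scaled by its effective length, a TPM value, per the file headers. STAR and mm10 are named in the submitters' processing notes. The program that made the estimated counts is not given in the sources used here. Per the labels' protocols, total RNA was isolated with RNeasy kits and libraries were made with the Ovation Mouse RNA-Seq System. The values of 99567 transcripts were summed per gene after matching their IDs to gene names (98206 matched, 32485 genes); the others were left out. Estimated counts were rounded to whole numbers.

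Genes with at least 1 TPM in at least 3 of the 6 samples were tested with edgeR 4.0.16 (R 4.3.3), TMM scaling, glmQLFit and glmQLFTest, with Benjamini-Hochberg adjustment over all 14307 genes and a threshold of 0.05. Transcript usage was tested with diffSpliceDGE and its gene-level F test. The common biological coefficient of variation was 0.129, and counts of 2 samples of 1 line differed by 6.00 to 11.2 times the variance of sampling (chi-square per degree of freedom), more than sampling noise. Alternatives used DESeq2 1.42.0 and limma 3.58.1. The pipeline was tested on simulated data. Promoters are from RefSeq, GRCm38.p6.

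The comparison and the 50 gene lists were chosen with earlier results of these data known. Named genes are taken from those a rule gives: Dcps, Hoxa9, Meis1, Myc, Kmt2a and Mllt3; the 15 largest rises and falls at 5 TPM or more without overlap; per list with 3 or more calls, its 5 most different called genes at 2 TPM or more; the 10 most abundant called genes with an absolute log2 difference of at least 1; and the 10 largest exchanges of leading transcript. Not all of these are named. Apoe, Cd5l, Cdk6, Fosl2, Jund, Lyz2, Mpo, Myb, Rab44, Slc40a1, Spic, Spry2, Zfp36, Alb, Bglap, Hpgd, Ibsp, Igha, Kitl, Lepr and Mmp9 lie outside the rule and were chosen after their values were seen. Ptprc, Spi1, Itgam, Cd33 and Kit are named as blood cell markers, whether called or not.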

Additional observations from a re-analysis of the deposited data

How the results depend on the processing

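The count of called genes stayed within 1.5 times of 9462 under DESeq2, other scalings, no filter, the filter at 5 TPM, all 12 line samples, a length offset, limma-voom, a filter on protein-coding transcripts and removal of the length trend; the last 2, the filter at 20 TPM and limma on log2(TPM + 1) were added after seeing the data. Against a fold of 1.5 (glmTreat), 4799 genes were called, 2429 higher and 2370 lower. With genes of at least 20 TPM it was 4513 of 5492 tested, 2243 higher and 2270 lower; fewer genes were tested. On log2(TPM + 1) 2217 were lower. Leaving out 1 sample gave 8148 to 8681 calls, 3902 to 4249 higher and 4246 to 4458 lower. Usage calls were 884 by Simes and 1015 of 4803 genes on protein-coding transcripts, and 1936 to 2124 without 1 sample. Without TMM the median log2 difference was 0.0378 on chromosome 15, 0.40 on chromosome 1 and 0.13 on chromosome X, and −0.26 on chromosome X at 5 TPM. Without 1 sample it ran from −0.19 to −0.17 on chromosome 15, from 0.13 to 0.19 on chromosome 1, from −0.20 to −0.10 on chromosome X and from 2.10 to 2.75 on chromosome Y, where the last range covers only the samples of line 1: without a sample of line 2, at 5 or 20 TPM and on protein-coding transcripts, fewer than 20 of its genes were tested and no median was taken.

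Replicate numbers are shared by the lines, but samples of equal number did not deviate together (correlations 0.01, 0.04 and 0.02), so they share only a number. With the replicate block 9260 genes were called, 4486 higher and 4774 lower, with 1936 usage calls, and no named gene lost its call.

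Of 136 genes given with a fitted difference, 7 changed sign under an alternative: on log2(TPM + 1) Ank1 (0.23), Cdk6 (1.05), Dcps (0.0116), Fosl2 (0.0286), Hdc (0.0493) and Myc (0.0662); Cdk6 with the length offset (0.61); Clk1 on protein-coding transcripts (−1.21); and Dcps with the length trend removed (0.0398). The cause was not tested. Without a sample of line 2, genes expressed in that line alone, among them muscle, stromal and endothelial genes, no longer met the filter of 3 samples, so 107 of the named genes were tested in each such fit. Dcps was the 1 named gene that lost its call when a sample was left out. Levels near 1 TPM rest on fewer reads in line 2 than in line 1.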

Other observations

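Surface receptors and lysosomal genes outside the lists above mostly split between the lines. Cytokine and growth factor receptor genes were 18 higher and 13 lower of 42 tested, and 25 higher and 3 lower on the TPM scale. In reads, 11 were higher and 13 lower of the 34 that reached 1 TPM in each line. Osmr and Lifr, receptors of the IL-6 family that stroma carries, had fitted differences of 3.40 ± 0.24 and 3.13 ± 0.20, given without levels. Chemokine receptors and other GPCRs were 11 higher and 16 lower of 42 tested, and 16 higher and 5 lower on the TPM scale. In reads, 5 were higher and 15 lower of the 34 that reached 1 TPM in each line. The nicotinic acid receptor Hcar2, tested only through line 2, was at 0 to 0.105 TPM in line 1 and 1.86 to 2.63 TPM in line 2 (4.62 ± 0.72). Gpr183, the oxysterol receptor, was at 4.27 to 5.48 and 2.08 to 2.45 TPM (−1.51 ± 0.17). Integrins and adhesion molecules were 13 higher and 13 lower of 38 tested, and 18 higher and 3 lower on the TPM scale. Itgad, an integrin of tissue macrophages, was higher in line 2, at 6.74 to 11.6 TPM against 0.249 to 1.25 TPM in line 1 (4.00 ± 0.20).

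Pattern recognition genes were 10 higher and 14 lower of 40 tested, and 16 higher and 5 lower on the TPM scale. The fungal lectin receptor Clec4n rose by 2.76 ± 0.74, while Cd180 and its partner Ly86 had log2 differences of −1.69 ± 0.10 and −1.68 ± 0.10. Fc, paired and Siglec receptors were 15 higher and 13 lower of 40 tested, and 17 higher and 9 lower on the TPM scale. Of the 38 that reached 1 TPM in each line, 13 were higher and 13 lower in reads. The macrophage receptors Siglec1 and Trem2 rose by 1.87 ± 0.14 and 1.82 ± 0.23, and Fcer1g, a shared signalling chain, was lower in line 2, at 555 to 615 TPM against 1215 to 1315 TPM in line 1 (−1.53 ± 0.05). Cathepsins and lysosomal enzymes were 10 higher and 21 lower of 37 tested, and 14 higher and 14 lower on the TPM scale. Legumain (Lgmn) measured 6.92, 5.53 and 6.72 TPM in line 1 and 46.6, 50.6 and 55.1 TPM in line 2 (2.71 ± 0.10), and the protease inhibitor Cst3 699.9, 682 and 689 and 268, 260.3 and 263 TPM (−1.80 ± 0.05).

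Myeloid transcription factors were 9 higher and 15 lower of 28 tested, and 14 higher and 5 lower on the TPM scale. Signalling kinases and phosphatases were 14 higher and 20 lower of 48 tested, and 23 higher and 2 lower on the TPM scale. Of the 45 that reached 1 TPM in each line, 11 were higher and 20 lower in reads. The kinase Jak3 rose by 1.02 ± 0.08 and the cytokine brake Socs2 by 1.75 ± 0.34. ATF4 genes of amino acid supply were 9 higher and 11 lower of 29 tested, and 14 higher and 1 lower on the TPM scale, with Aldh1l2 and Bcat1 rising by 1.96 ± 0.22 and 1.95 ± 0.44. Of the 27 ATF4 genes that reached 1 TPM in each line, 7 were higher and 11 lower in reads. MHC class I and antigen processing genes were 5 higher and 13 lower of 22 tested, and 7 higher and 8 lower on the TPM scale. MHC class II and dendritic cell genes were 6 higher and 4 lower of 18 tested, interferon gamma and GBP genes 13 higher and 6 lower of 27 tested, schlafen, GIMAP and Ly6 genes 6 higher and 8 lower of 20 tested, MS4A genes 6 higher and 5 lower of 15 tested and sex chromosome genes 4 higher and 3 lower of 10 tested. On the TPM scale interferon gamma and GBP genes were 17 higher and 1 lower, MS4A genes 6 and 3, and sex chromosome genes 6 and 3. On that scale MHC class II genes were 9 higher and 2 lower, and schlafen, GIMAP and Ly6 genes 8 higher and 7 lower. In reads, 4 were higher and 4 lower of the 16 MHC class II genes that reached 1 TPM in each line. For MS4A genes it was 4 higher and 5 lower of 12. For interferon gamma and GBP genes it was 11 and 6 of 25, for schlafen, GIMAP and Ly6 genes 4 and 8 of 18, and for sex chromosome genes 3 and 3 of 9. Ly6e, an abundant surface protein, was lower in line 2, at 323 to 356 TPM against 805 to 840.4 TPM in line 1 (−1.72 ± 0.05).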
